A study of Mus musculus with 426 samples.

Results

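Chromosomes 15, 16, 17 and 19 are 4 of the smaller mouse autosomes. Their DNA was followed here in single cells of an implanted pancreatic cancer, together with the stretch of chromosome 15 that holds the oncogene Myc. The chromosomes were chosen with earlier results of these data known. All their genomic bins in the deposited DNA counts were taken, whatever their values: 203 bins on chromosome 15, 192 on chromosome 16, 178 on chromosome 17 and 119 on chromosome 19. These 692 bins were part of 4730 autosomal bins and of 5000 bins in all (mouse build mm9).

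Tumour cells often carry extra or missing copies of whole chromosomes or chromosome arms, and cells of one tumour can differ in them. A region present in more copies than the rest of the genome gives more reads per bin in a single-cell DNA library. Mouse chromosome 15 carries Myc, a transcription factor that drives growth and division and is often gained in cancers, chromosome 17 carries the cell cycle inhibitor Cdkn1a and the major histocompatibility complex, and chromosome 16 the transcription factor Runx1.

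RNA and DNA were read from the same cells: complementary DNA was amplified first and the genome of the cell afterwards in the same tube. Male C57BL/6 mice aged 6 to 8 weeks received 50000 cells of KPC1199-EGFP, a pancreatic tumour line of the mouse carrying GFP, in matrigel into the pancreas, and the tumours grew for 6 to 8 weeks. From 3 such mice, primary tumours were sorted into GFP+, EpCAM+, GFP+EpCAM+ and CD45+ cells, and GFP+ cells were sorted from the peritoneum of each mouse and from spleen, kidney and liver of mice 2 and 3. CD45 marks leukocytes of the host, which served as the reference, and all groups came from the same implanted mice; the labels do not say whether cells of the EpCAM+ sort carried GFP, so host epithelial cells may be among them.

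DNA was described in the 318 of 418 cells with at least 50000 reads. These were 63 of 96 GFP+ primary cells, 22 of 28 EpCAM+ cells, 27 of 33 GFP+EpCAM+ cells, 74 of 86 peritoneum cells, 40 of 44 kidney cells, 10 of 33 liver cells, 29 of 40 spleen cells and 53 of 58 CD45+ cells. They held 50522 to 3255873 reads, with a median of 584486. Reads were spread unevenly in some libraries: the share of a cell's reads in bins above 3 times its median bin ran from 0.2% to 89.3%, with a median of 4.76%. By mouse, the median of this share was 3.31%, 6.82% and 21.9% in GFP+ primary cells of mice 1, 2 and 3, and 0.915%, 20.2% and 10.1% in CD45+ cells. It was highest in spleen cells of mouse 2, at 44.6%, against 1.49% in spleen cells of mouse 3. The CD45+ sort stood apart in leukocyte RNA. In it 6 leukocyte genes, Ptprc (CD45) among them, summed to 6044 to 7801 CPM (counts scaled to the library total) by mouse. In the GFP+ and EpCAM+ groups they summed to between 3.69 and 704 CPM, with the highest value in kidney cells of mouse 3. The 6 epithelial genes named below summed to 9698 CPM or more in EpCAM+ and GFP+EpCAM+ cells. They did not separate every GFP+ group: CD45+ cells of mouse 2 had 1644 CPM, above 1484 and 733 CPM in GFP+ primary cells of mice 2 and 3.

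Each chromosome was summarised per cell in 2 ways. The ratio is its mean bin count over the mean bin count of chromosomes 1 to 19 in that cell. The median bin ratio is the median over its bins after each was divided by the cell's median bin and by the CD45+ reference, and it is less moved by a few very high bins. Both are relative to the rest of the cell's own genome, so ploidy is not measured. The mouse was the replicate.

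Chromosomes 17, 19 and 15 lay above the leukocyte level of the same mouse in nearly every group sorted for GFP or EpCAM, and chromosome 16 did not. There were 18 pairs of such a group with CD45+ cells of the same mouse. Chromosome 17 was higher in 18 of them, by 0.0367 to 0.199 in median bin ratio (median 0.146). Chromosome 19 was higher in 17, with a median difference of 0.173, and chromosome 15 in 17, with a median difference of 0.103. Chromosome 16 was higher in only 7 of the 18 pairs and its median difference was -0.0354. Of the 19 autosomes, 4 were higher in all 18 pairs and 6 were lower in all of them, and chromosome 17 was the only one of the 4 chromosomes here in either set. Ranked among the 19 autosomes by mean median bin ratio, chromosome 19 stood 3rd in GFP+ primary, EpCAM+, peritoneum and spleen cells and 11th in liver cells.

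**Figure D1:**
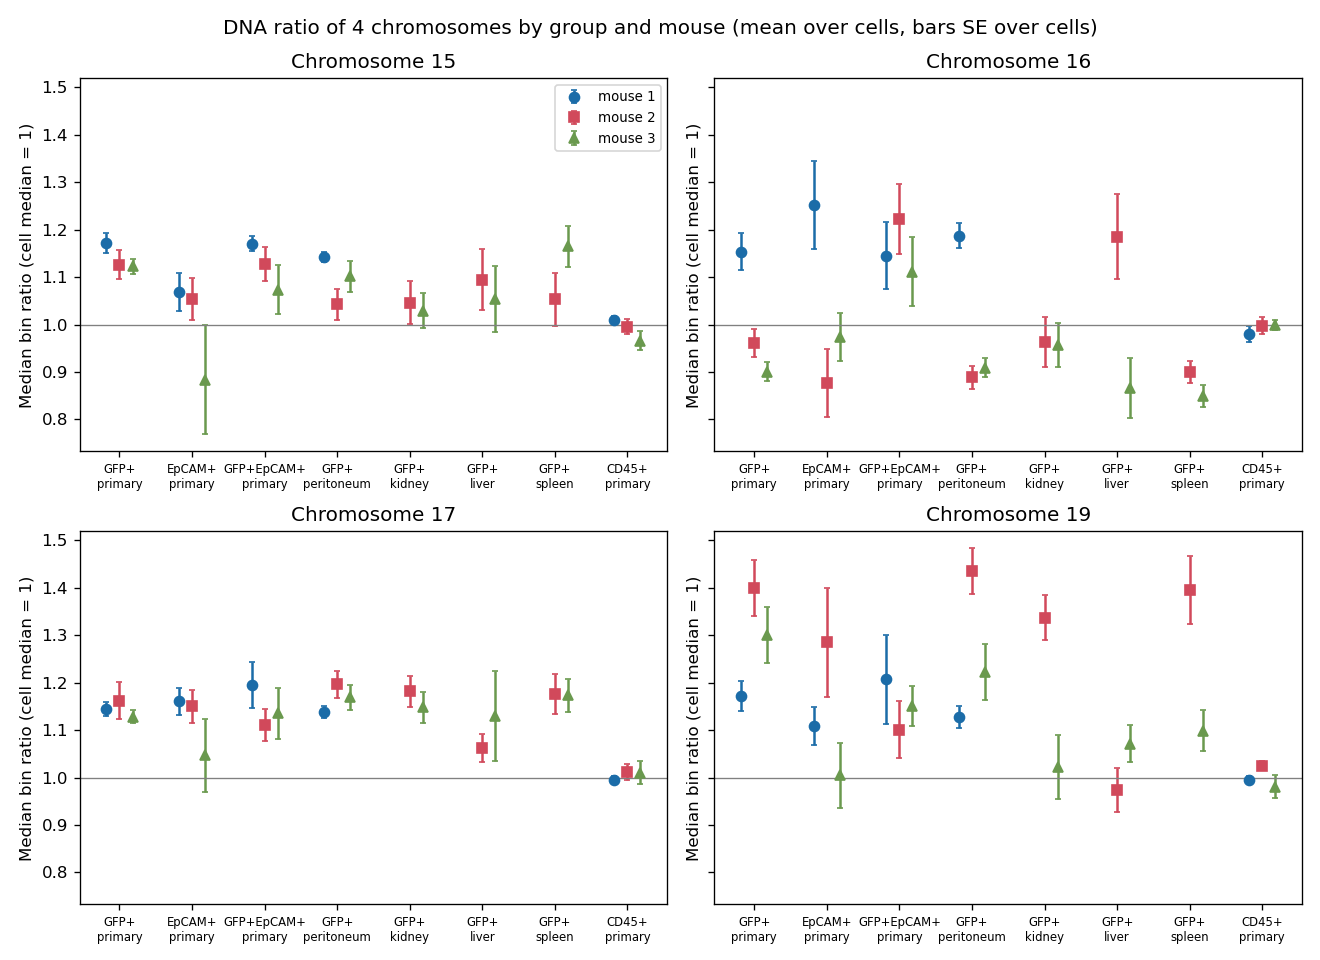
Median bin ratio of chromosomes 15, 16, 17 and 19, 1 panel each, by group and mouse; points are means over the cells of a mouse and bars the standard error over those cells, and a ratio of 1 is the level of the cell's own median bin. Chromosome 17 lies above CD45+ cells of the same mouse in 18 of 18 pairs, while chromosome 16 spreads to both sides and lies above them in 7.

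The comparison with CD45+ cells was tested with limma on the log2 ratio across the 19 autosomes, with Benjamini-Hochberg adjustment over them. Of 28 tests (4 chromosomes in 7 groups) 6 passed at 0.05, all of them higher: chromosome 17 in 5 groups and chromosome 15 in GFP+ primary cells. The share of all autosomes called higher was 26.3% in GFP+ primary, 10.5% in EpCAM+, 10.5% in GFP+EpCAM+, 21.1% in peritoneum, 21.1% in kidney, 21.1% in spleen and 26.3% in liver cells. A single call among the 4 chromosomes, as in GFP+EpCAM+, peritoneum, kidney and spleen cells, is therefore near this background. With the median over bins in place of the mean 10 tests passed, and the autosomes called higher were then 36.8%, 15.8%, 21.1%, 36.8%, 26.3%, 26.3% and 26.3% in the same order of groups. Among cells with at most 5% of their reads in very high bins, a selection made after seeing the data that leaves no GFP+ primary or GFP+EpCAM+ cell of mouse 3, none of the 28 tests passed on the mean and 4 passed on the median. The 7 comparisons share the CD45+ samples, so their calls are not independent of each other.

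Chromosome 17 was higher than in CD45+ cells of the same mouse in every group on the median bin ratio; on the mean ratio EpCAM+ cells of mouse 3 were lower, at 0.979 against 1.01. Its median bin ratio was 1.14, 1.16 and 1.13 in GFP+ primary cells of mice 1, 2 and 3, against 0.996, 1.01 and 1.01 in CD45+ cells. In peritoneum cells it was 1.14, 1.197 and 1.17, in kidney cells of mice 2 and 3 it was 1.18 and 1.15, and in spleen cells 1.18 and 1.17. None of these values overlapped with the CD45+ values. The lowest values were 1.05 in EpCAM+ cells of mouse 3 and 1.06 in liver cells of mouse 2. The log2 difference of the ratio from CD45+ cells was 0.16 in GFP+ primary (SE 0.0662, limma adjusted p = 0.0475), 0.19 in GFP+EpCAM+ (adjusted p = 0.024), 0.20 in peritoneum (adjusted p = 0.014), 0.18 in kidney (adjusted p = 0.0388) and 0.23 in spleen cells (adjusted p = 0.0105). It was 0.13 in EpCAM+ (limma adjusted p = 0.118) and 0.07 in liver cells (adjusted p = 0.42), which did not pass. With the median over bins EpCAM+ cells passed as well (log2 difference 0.15, limma adjusted p = 0.0132).

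A cell was counted as gained where its ratio was at least 25% above the mean CD45+ ratio, and as lost where it was at least 20% below. Counted this way, chromosome 17 was gained in 10 of 29 spleen cells (34.5%), 9 of 40 kidney cells (22.5%), 12 of 74 peritoneum cells (16.2%) and 2 of 63 GFP+ primary cells, against 1 of 53 CD45+ cells. On the median over bins these counts were 6 in spleen, 11 in kidney, 10 in peritoneum and 5 in GFP+ primary cells, against 1 in CD45+ cells. By mouse, 7 of 13 spleen cells were gained in mouse 2 and 3 of 16 in mouse 3, and 4 of 20 and 5 of 20 kidney cells. The spleen libraries of mouse 2 were the most uneven: only 2 of these 13 cells had at most 5% of their reads in very high bins. The part of this in the counts was not tested. The mean of GFP+ primary cells, 1.15 ± 0.017 in median bin ratio (SD, n = 3 mice), lies below this limit. Around the limit the ratios were continuous: 32 cells lay within 0.05 of it, the lowest gained cell was at 1.264 and the highest cell not gained at 1.246. With the bins of a chromosome split into a proximal and a distal set of equal number, the distal minus the proximal set of chromosome 17 was -0.104 in peritoneum cells, against 0.00269 in CD45+ cells (exact two-sided permutation p = 0.1, the smallest that 3 mice against 3 allow). Groups differed in sign: it was -0.133 in spleen and -0.0501 in GFP+ primary cells, but 0.108 in liver and 0.0241 in EpCAM+ cells.

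Chromosome 19 held the highest values of the 4 chromosomes and varied between mice. Its median bin ratio was 1.17, 1.40 and 1.30 in GFP+ primary cells of mice 1, 2 and 3, against 0.996, 1.03 and 0.981 in CD45+ cells. Peritoneum cells had 1.13, 1.44 and 1.22. Mouse 2 was the highest in both groups, and none of the 6 values overlapped with the CD45+ values. Kidney cells had 1.34 in mouse 2 and 1.02 in mouse 3, and spleen cells 1.40 and 1.10, so mouse 2 was also higher than mouse 3 at these sites. Liver cells had 0.974 and 1.07, on both sides of 1.

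In the test of the mean ratio no group passed on chromosome 19. The log2 difference from CD45+ cells was 0.26 in GFP+ primary (SE 0.122, limma adjusted p = 0.0706), 0.26 in peritoneum (adjusted p = 0.0743), 0.25 in spleen (adjusted p = 0.106), 0.15 in kidney (adjusted p = 0.38) and -0.05 in liver cells (adjusted p = 0.803). The mean ratio of CD45+ cells of mouse 2 was 1.202, although their median bin ratio was 1.03. With the median over bins GFP+ primary (log2 difference 0.35, limma adjusted p = 0.0154) and peritoneum cells (0.31, adjusted p = 0.0253) passed. Taking the mouse as a block had the same effect, with adjusted p = 0.0154 in GFP+ primary and 0.018 in peritoneum cells (limma). In these CD45+ cells of mouse 2 the median share of reads in very high bins was 20.2%, and its part in the result was not tested.

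Cell by cell, chromosome 19 was the most often gained of the 4 in GFP+ primary cells. It was gained in 22 of 63 of them (34.9%, exact 95% interval 23.3 to 47.97), in 24 of 74 peritoneum cells (32.4%, 22.005 to 44.3), in 17 of 40 kidney cells (42.5%, 27.04 to 59.1) and in 11 of 29 spleen cells (37.9%, 20.7 to 57.7), against 4 of 53 CD45+ cells (7.55%, 2.09 to 18.2). All 4 of these CD45+ cells were from mouse 2, and with the median over bins, a measure added after seeing the data, no CD45+ cell was gained. By that measure 26 GFP+ primary, 28 peritoneum, 16 kidney and 12 spleen cells were gained. No liver cell was gained on either measure, of 10.

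The gains were unevenly divided among mice. Of GFP+ primary cells 4 of 26 were gained in mouse 1, 9 of 14 in mouse 2 and 9 of 23 in mouse 3. Of peritoneum cells 2 of 35 were gained in mouse 1, 14 of 17 in mouse 2 and 8 of 22 in mouse 3. Mouse 2 therefore had the highest share in both groups. In kidney 11 of 20 cells were gained in mouse 2, and in mouse 3 6 of 20 were gained and 5 of 20 lost, and in spleen 9 of 13 cells were gained in mouse 2 and 2 of 16 in mouse 3. Intervals cover counting error only, since cells of a mouse are not separate replicates. The shares were not compared with a test.

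**Figure D2:**
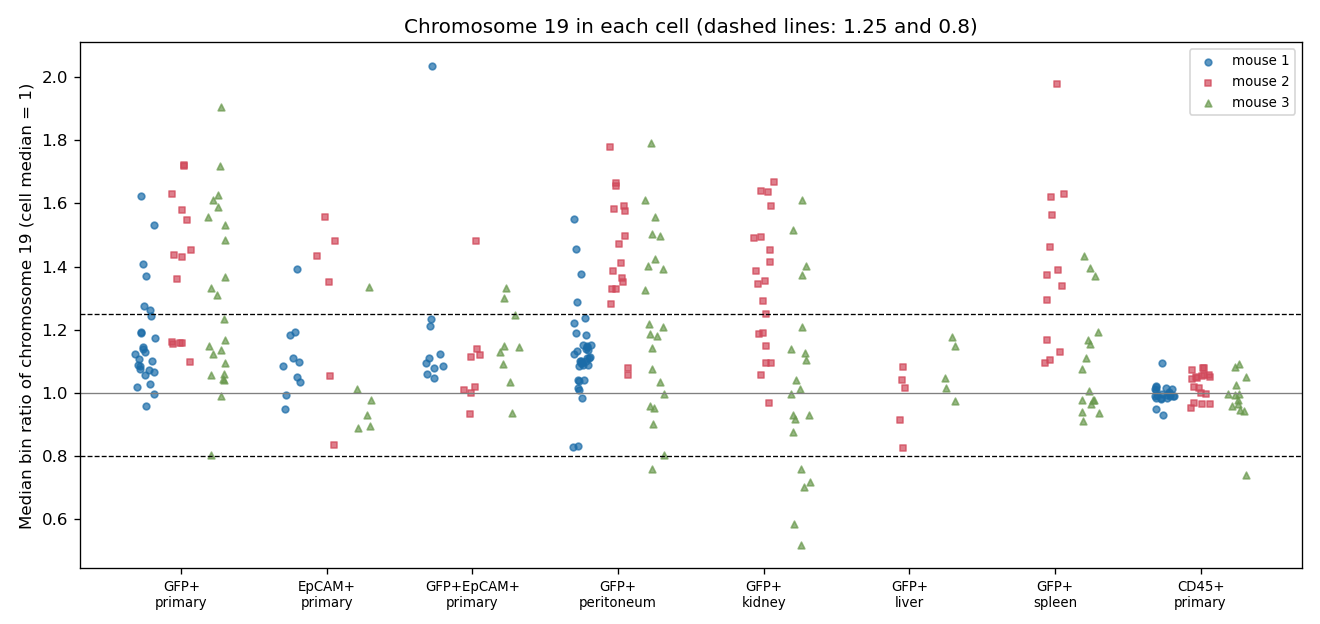
Median bin ratio of chromosome 19 in each of the 318 cells, by group and mouse, where 1 is the level of the cell's own median bin. Dashed lines lie 25% above and 20% below that level. Mouse 2 has the highest means in peritoneum (1.44) and GFP+ primary cells (1.40), and no CD45+ or liver cell lies above the upper line. The counts of gained cells by mouse in the text use the mean ratio instead.

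How much of chromosome 19 was gained depended on the measure. On the mean, its proximal and distal bins were both gained in 13 GFP+ primary, 15 peritoneum, 10 kidney and 3 spleen cells, against 1 CD45+ cell. The proximal bins alone were gained in 13 GFP+ primary, 10 peritoneum, 9 kidney and 8 spleen cells, against 4 CD45+ cells. On the median over bins, both sets were gained in 25 GFP+ primary, 26 peritoneum, 13 kidney and 12 spleen cells, against 0 CD45+ cells, and the proximal bins alone in 5, 1, 7 and 1 of the same groups, against 2 CD45+ cells. The first block of 10 bins, chr19:1-8263951, was chosen after its values were seen. Over all kept cells it was at 1.30, 2.78 and 2.57 in GFP+ primary cells of mice 1, 2 and 3, against 1.06, 1.98 and 1.11 in CD45+ cells, so it was also high in CD45+ cells of mouse 2. The rest of the chromosome was at 1.18, 1.38 and 1.28 in GFP+ primary cells, against 1.00, 1.02 and 0.989 in CD45+ cells. These are means over cells. The medians over cells in the first block were 1.17, 2.12 and 2.04 in GFP+ primary and 1.04, 1.32 and 1.08 in CD45+ cells. With at most 5% of reads in very high bins, GFP+ primary cells of mice 1 and 2 had 1.18 and 1.57 there (15 and 6 cells). CD45+ cells of mice 1, 2 and 3 had 1.04, 0.856 and 0.649 in the same selection (21, 6 and 2 cells).

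Chromosome 15 was modestly higher in most groups. Its median bin ratio was 1.17, 1.13 and 1.12 in GFP+ primary cells of mice 1, 2 and 3, against 1.01, 0.996 and 0.966 in CD45+ cells, and the groups did not overlap. Peritoneum cells had 1.14, 1.04 and 1.10, kidney cells 1.05 and 1.03, liver cells 1.09 and 1.05, and spleen cells 1.05 and 1.16. EpCAM+ cells had 1.07, 1.05 and 0.883, so that mouse 3 lay below all CD45+ values. The log2 difference from CD45+ cells passed in GFP+ primary cells, at 0.22 (SE 0.0752, limma adjusted p = 0.0141). Without mouse 3 it was 0.15 with adjusted p = 0.061 (limma), and in cells with few very high bins 0.21 with adjusted p = 0.060 on the mean and 0.26 with adjusted p = 0.0187 on the median over bins (limma). The differences in GFP+EpCAM+ (0.17, limma adjusted p = 0.0668), peritoneum (0.15, adjusted p = 0.0766) and spleen cells (0.15, adjusted p = 0.115) did not pass. By cell, chromosome 15 was gained in 8 of 63 GFP+ primary, 5 of 29 spleen, 6 of 74 peritoneum, 4 of 40 kidney, 2 of 27 GFP+EpCAM+ and 1 of 22 EpCAM+ cells, against 0 of 53 CD45+ cells. It was lost in 4 kidney, 3 EpCAM+, 2 peritoneum, 1 GFP+EpCAM+ and 1 spleen cell and in 0 GFP+ primary cells, against 2 CD45+ cells.

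The window around Myc, 8 bins at chr15:60145236-64174047 (mm9, placed from general knowledge of the position of the gene), lay near the level of its chromosome. Its median bin ratio was 1.09, 1.26 and 1.13 in GFP+ primary cells of mice 1, 2 and 3, against 0.980, 1.01 and 0.938 in CD45+ cells. The groups averaged 1.16 ± 0.0911 and 0.975 ± 0.0345 (SD, n = 3 mice each; exact two-sided permutation p = 0.1, the smallest possible). Peritoneum cells had 1.06, 1.11 and 1.01, also just above every CD45+ value (exact permutation p = 0.1). Kidney cells had 1.04 and 1.07, liver cells 1.12 and 1.02, and spleen cells 1.09 and 1.14. Each of these 3 sites had p = 0.2 in the exact permutation test, the smallest that 2 mice against 3 allow. EpCAM+ cells, at 0.957, 1.07 and 0.832, overlapped with CD45+ cells.

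The window divided by the rest of chromosome 15 lay between 0.948 and 1.02 in the group means, with 0.983 in CD45+ cells. No comparison of this measure with CD45+ cells gave an exact permutation p below 0.4. No focal gain of the Myc region over its chromosome was therefore detectable with bins of this size and 2 or 3 mice a group. The mean in place of the median gave 1.204 in GFP+ primary cells relative to CD45+ cells, with exact permutation p = 0.2.

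**Figure D3:**
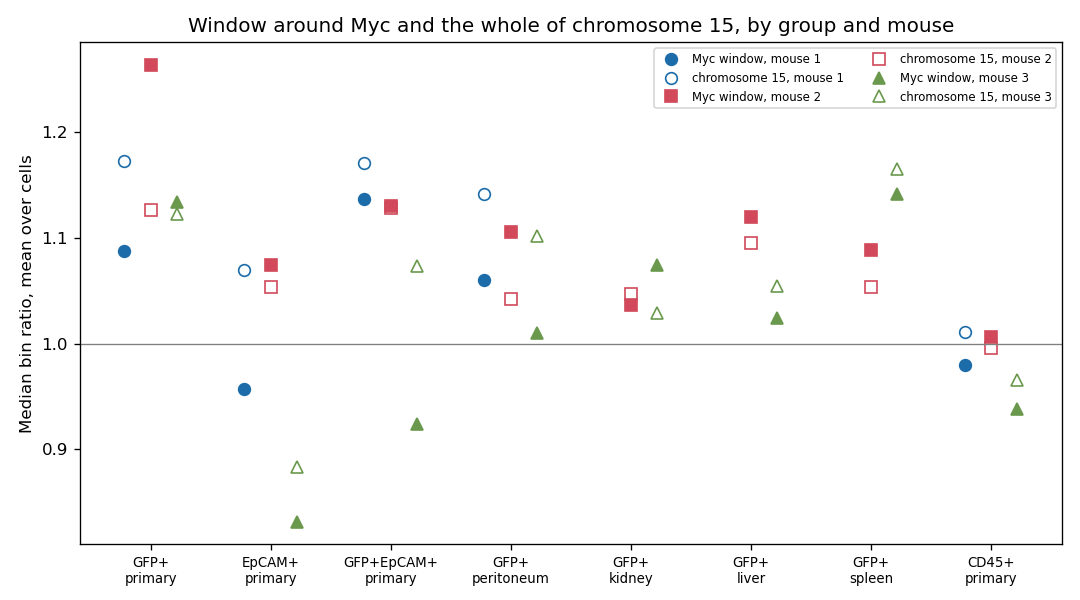
Median bin ratio of the 8 bins around Myc (filled) and of the whole of chromosome 15 (open), mean over cells for each mouse and group. In GFP+ primary cells the window is at 1.09, 1.26 and 1.13 and the whole chromosome at 1.17, 1.13 and 1.12, both above CD45+ cells.

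Myc RNA was not called in any group. It was measured at 40.96, 477 and 281 CPM in GFP+ primary cells of mice 1, 2 and 3, against 110, 37.1 and 86.6 CPM in CD45+ cells. GFP+EpCAM+ cells had 91.6, 1637 and 189 CPM, and spleen cells of mice 2 and 3 had 573 and 547 CPM. Mouse 1 was below its CD45+ cells in GFP+ primary cells and mice 2 and 3 were above. The log2 difference in the 7 groups ran from 0.64 to 3.44, and none passed (edgeR adjusted p = 0.166 to 0.894). With the mouse as a block the direction turned in peritoneum (-0.69) and liver cells (-0.43), and without 1 mouse the difference was -1.29 to 1.45 in peritoneum and -3.23 to 3.14 in liver cells.

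Beyond the Myc window, the distal part of chromosome 15 was uneven. The stretch chr15:73498289-87831087 (30 bins, chosen after its values were seen) was at 1.72 and 1.34 in spleen cells of mice 2 and 3 over all kept cells. In GFP+ primary cells of mice 1, 2 and 3 it was at 1.18, 1.36 and 1.17 and in peritoneum cells at 1.29, 1.53 and 1.46, against 1.02, 1.08 and 1.02 in CD45+ cells. Kidney cells of mice 2 and 3 had 1.49 and 1.22, and liver cells 1.01 and 1.02. EpCAM+ cells had 1.07, 1.47 and 0.660, and GFP+EpCAM+ cells 1.12, 1.06 and 1.35. These are means over cells, and in mouse 3 the median over cells was 1.23 in peritoneum and 0.943 in kidney cells. The first 140 bins, chr15:1-73498288, were at 0.971 and 1.11 in spleen, 1.16, 1.06 and 1.10 in GFP+ primary and 1.10, 0.994 and 1.05 in peritoneum cells, against 0.994, 0.977 and 0.965 in CD45+ cells. With few very high bins, GFP+ primary cells of mice 1 and 2 had 1.13 and 1.34 in the distal stretch (15 and 6 cells). Peritoneum cells had 1.27, 1.28 and 1.09 (28, 5 and 14 cells) and spleen cells 1.70 and 1.23 (2 and 12 cells). Kidney cells of mice 2 and 3 had 1.28 and 0.935 (11 and 15 cells), and liver cells 0.882 and 1.13 (4 cells each). EpCAM+ cells had 1.01, 1.11 and 0.730 (5, 2 and 3 cells). GFP+EpCAM+ cells of mice 1 and 2 had 1.21 and 1.05 (3 and 2 cells). CD45+ cells in the same selection had 1.02, 0.85 and 0.73 (21, 6 and 2 cells). The distal minus the proximal set of bins of the whole chromosome was 0.0983 in peritoneum and 0.0178 in CD45+ cells (exact two-sided permutation p = 0.1, the smallest possible). It was 0.198 in spleen, 0.0925 in kidney and 0.0439 in GFP+ primary cells, but -0.0571 in EpCAM+, -0.0187 in GFP+EpCAM+ and -0.0131 in liver cells.

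Chromosome 16 had no common shift and differed between mice and along its length. Its median bin ratio was 1.15, 0.961 and 0.900 in GFP+ primary cells of mice 1, 2 and 3, against 0.979, 0.998 and 1.00 in CD45+ cells. Peritoneum cells had 1.19, 0.889 and 0.909, with the same order of mice. EpCAM+ cells had 1.252, 0.877 and 0.974. Mouse 1 was above its CD45+ cells in each of these groups and mice 2 and 3 were below. GFP+EpCAM+ cells were above in every mouse, at 1.15, 1.22 and 1.11. Spleen cells were below in mice 2 and 3, at 0.899 and 0.849, and liver cells were split, at 1.19 and 0.866. The log2 differences from CD45+ cells ran from -0.16 to 0.11 with limma adjusted p = 0.281 to 0.909, and none passed. With the mean of mice near the reference and the mice on both sides of it, the group means stand for differences of up to 0.272 from CD45+ cells of the same mouse.

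Along chromosome 16 the ratio was often lower in the middle than at both ends. The proximal end was taken as chr16:1-18149103 (30 bins), the interior as chr16:23232092-67745258 (90 bins) and the distal end as chr16:87739448-98319150 (22 bins), limits chosen after the values were seen, so that what follows is a description. Each value is the median bin ratio within the stretch. In peritoneum cells of mouse 1 with few very high bins (28 cells) the proximal end, interior and distal end were at 1.46, 1.05 and 1.53: the ends were raised and the interior was near the reference. In peritoneum cells of mouse 3 they were at 1.22, 0.79 and 1.16, and in spleen cells of mouse 3 at 1.12, 0.67 and 1.11: there the interior was low and the ends were modestly raised. GFP+ primary cells of mouse 2 had 1.15, 0.81 and 1.23. GFP+ primary cells of mouse 1 had 1.12, 1.09 and 1.17, nearly level. CD45+ cells had 1.01, 0.98 and 0.99 in mouse 1 (21 cells), 0.98, 1.03 and 0.93 in mouse 2 (6 cells) and 0.90, 1.02 and 0.79 in mouse 3 (2 cells), with no low interior.

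**Figure D4:**
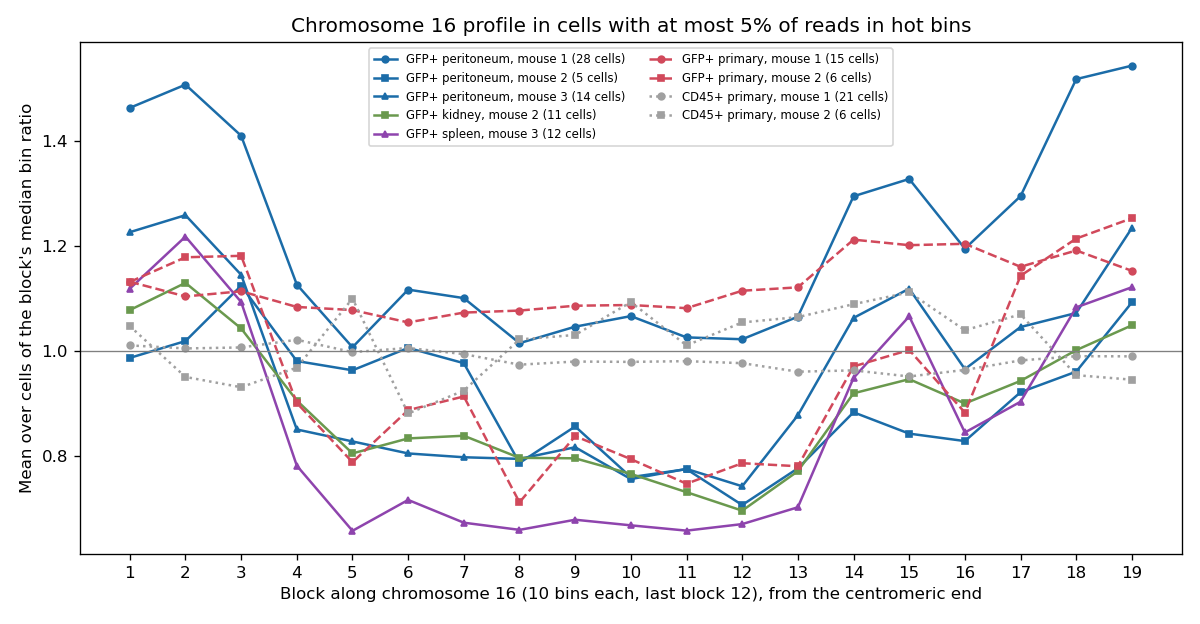
Median bin ratio, averaged over cells, in 19 consecutive blocks along chromosome 16, in file order. Shown are cells with at most 5% of reads in very high bins, for 7 sets of GFP+ cells and for CD45+ cells of mice 1 and 2. Peritoneum cells of mouse 1 are raised at both ends only, while peritoneum cells of mice 2 and 3, kidney cells of mouse 2, spleen cells of mouse 3 and GFP+ primary cells of mouse 2 are low in the middle.

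The profiles were present in single cells. Of all 35 kept peritoneum cells of mouse 1, 29 had both ends gained and the interior not. At most 4 cells did so in any other group of a mouse. A low interior (at least 20% under the reference) with ends that were not lost was found in 13 of 17 peritoneum cells of mouse 2, 16 of 22 of mouse 3, 9 of 13 spleen cells of mouse 2 and 13 of 16 of mouse 3. GFP+ primary cells showed it in 4 of 26, 6 of 14 and 12 of 23 cells of mice 1, 2 and 3, and kidney cells in 7 of 20 and 9 of 20 cells. In EpCAM+ cells it was found in 2 of 10, 1 of 6 and 0 of 6 cells, in GFP+EpCAM+ cells in 0 of 10, 1 of 8 and 1 of 9, and in CD45+ cells in 0 of 22, 1 of 18 and 0 of 13. The interior was below both ends in 35 of 35, 17 of 17 and 19 of 22 peritoneum cells and in 13 of 26, 14 of 14 and 23 of 23 GFP+ primary cells, against 10 of 22, 5 of 18 and 4 of 13 CD45+ cells.

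**Figure D5:**
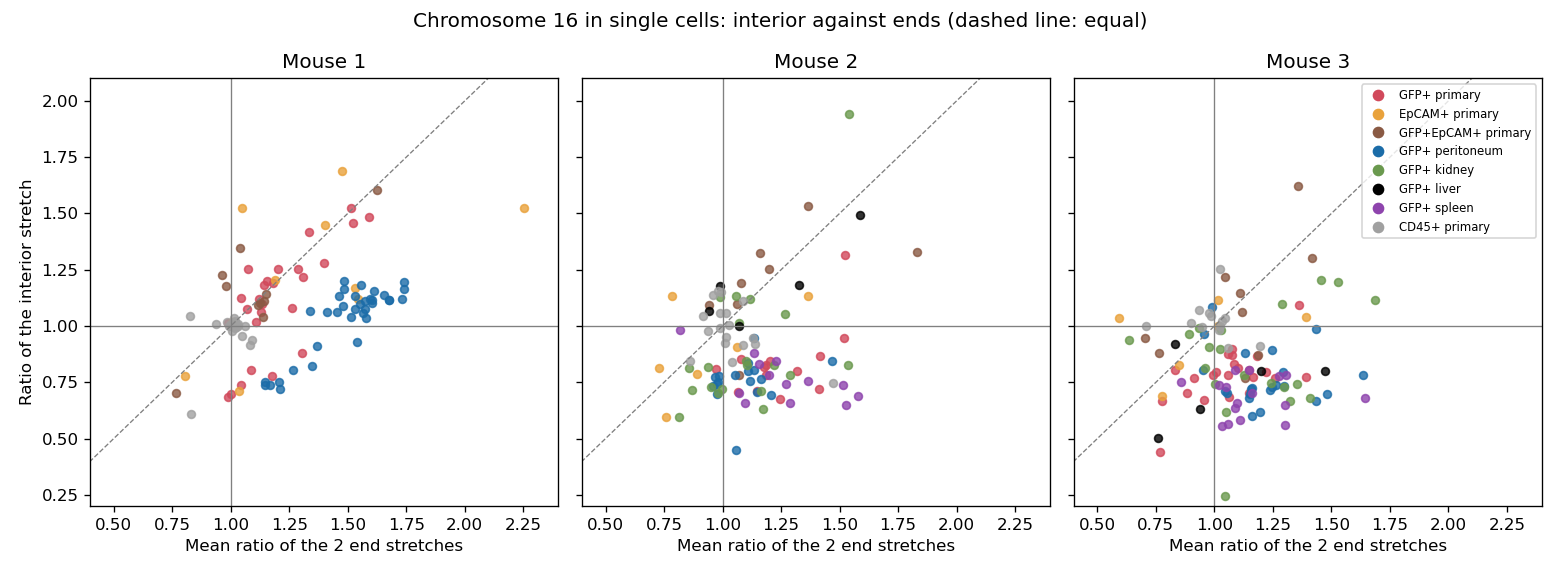
Interior of chromosome 16 (vertical) against the mean of its ends (horizontal) in each kept cell, 1 panel per mouse, with a dashed line where both are equal. Peritoneum cells of mouse 1 lie below the line with an interior near 1, GFP+ primary and peritoneum cells of mice 2 and 3 lie mostly below it with mean interiors of 0.756 to 0.834, and CD45+ cells scatter around 1.

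The bulk libraries, which entered no test, shared some of these features. GFP+ peritoneum of mouse 1 in bulk had 1.53 at the proximal end, 1.04 in the interior and 1.61 at the distal end, raised at the ends like its single cells. A bulk library of mouse 1 that its title calls GFP+ primary and its marker label EpCam had 1.17, 1.09 and 1.24. Bulk GFP+ primary cells of mouse 2 had 0.978, 0.775 and 1.01, with a low interior like the single cells but without their raised ends. Bulk GFP- peritoneum of mouse 1 had 1.02, 0.941 and 1.08, and bulk GFP- primary tumour of mouse 1, with only 19523 reads, had 1.27, 1.12 and 1.39. Bulk CD45+ cells of mouse 1 had 1.05, 0.955 and 1.11, so an interior slightly below both ends was present in the reference too.

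Epithelial and fibroblast RNA moved with chromosome 16 in part. The summed level of 6 epithelial genes (Epcam, Krt8, Krt18, Krt19, Cdh1 and Krt7, none at 0 in any group) was 9234, 1484 and 733 CPM in GFP+ primary cells of mice 1, 2 and 3, and the interior over all kept cells was 1.11, 0.834 and 0.781. In peritoneum cells the sums were 8575, 127 and 339 CPM and the interior was 1.03, 0.756 and 0.770. Spleen cells of mice 2 and 3 had an interior of 0.763 and 0.686, with 344 and 208 CPM. Kidney cells of mouse 2 went against this order, with 9813 CPM and an interior of 0.897, and so did liver cells of mouse 3, with 2302 CPM and 0.731. EpCAM+ cells of mice 2 and 3 also did, with 14601 and 20887 CPM and an interior of 0.894 and 0.952. A list of 6 fibroblast genes, Col1a1 among them and none at 0 in any group, summed to 2416, 14396 and 4818 CPM in GFP+ primary cells of mice 1, 2 and 3, to 1040, 15958 and 9632 CPM in peritoneum cells and to 17603 and 11414 CPM in spleen cells, against 21.6 to 223 CPM in CD45+ cells. CD45+ cells had 110 to 1644 CPM of the epithelial genes and an interior of 0.979 to 1.02. Correlations over cells within a group of a mouse left out CD45+ and liver cells. The correlation between the interior and the log2 epithelial sum was positive in 11 of 16 and ranged from -0.704 to 0.429, with a median of 0.234. For the fibroblast sum it was positive in 5 of 16, with a median of -0.226. The part of these markers in the chromosome 16 profile was not tested.

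RNA from genes of chromosome 16 also differed by mouse. Their share of all RNA counts averaged 3.56% in peritoneum cells of mouse 1, against 2.49% and 2.22% in mice 2 and 3. In GFP+ primary cells it was 3.001%, 2.39% and 2.48%, and in CD45+ cells 2.09%, 1.85% and 2.07%. The mouse with the highest DNA ratio had the highest share in both GFP+ groups. On chromosome 19 mouse 2 was highest in DNA in both groups. Its share was the lowest in GFP+ primary cells (5.61%) and the highest in peritoneum cells (7.21%). Averaged over mice, that share was 6.28% in GFP+ primary and 6.41% in peritoneum cells, against 8.42% in CD45+ and 10.3% in EpCAM+ cells. On chromosome 17 GFP+ primary and peritoneum cells had 4.87% and 4.75%, against 5.24% in CD45+ cells. On chromosome 15 they had 4.53% and 4.34%, against 3.40%. Over cells within a group of a mouse, the correlation between the median bin ratio of a chromosome and the log2 share of RNA from its genes had a median of 0.274 on chromosome 15, 0.281 on chromosome 16, 0.227 on chromosome 17 and 0.0345 on chromosome 19, over 16 groups of a mouse (316 cells had both measures). These were weak and ran from -0.542 to 0.797 on chromosome 16, and both measures come from libraries of the same tube.

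Bin by bin, few of the 692 bins passed on their own. The counts were summed per mouse and group and tested with edgeR over all 4730 autosomal bins. Against CD45+ cells 1 bin was higher and 0 lower in GFP+ primary cells, where 0.486% of all bins were called higher and 0.677% lower. In EpCAM+ cells 0 were higher and 3 lower (all bins 0.402% and 0.909%), in peritoneum cells 0 and 1 (0.486% and 0.655%), and in spleen cells 4 and 2 (0.867% and 1.18%). No bin was called in kidney (all bins 0.19% and 0.254%) or liver cells (0.381% and 0.677%). Of the 692 bins, 24 and 55 had an unadjusted p under 0.05 in edgeR, and DESeq2 called 2 and 26. Shares of all bins are not set beside the unadjusted and DESeq2 counts, so these were not compared with a background. GFP+EpCAM+ cells stood apart with 30 higher and 8 lower (all bins 3.07% and 5.77%), 15 of the higher ones on chromosome 17, 7 on chromosome 19, 5 on chromosome 16 and 3 on chromosome 15. That count was 28 in all without mouse 1, 1 without mouse 2 and 0 without mouse 3. The median log2 difference over the 692 bins was 0.12 in GFP+ primary cells, where all bins had -0.03, and 0.14 in peritoneum cells, where all bins had -0.01.

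The chromosomes differed in this shift between groups. Of the 119 bins of chromosome 19, 112 were above CD45+ cells in GFP+ primary, 111 in peritoneum and 98 in kidney cells, and 65 in liver cells, with median log2 differences of 0.26, 0.24, 0.21 and 0.02. Of the 192 bins of chromosome 16 only 55 were above CD45+ cells in spleen cells, with a median log2 difference of -0.22. Of the 178 bins of chromosome 17, 150 were above CD45+ cells in peritoneum and 124 in GFP+ primary cells, with medians of 0.19 and 0.07. Neighbouring bins of a chromosome share a copy number, so these counts are a description.

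The bin called in GFP+ primary cells was chr16:18149104-18611455, the first bin after the proximal stretch of chromosome 16. Its ratio, the summed count over that of the mean autosomal bin, was 1.12, 1.79 and 1.56 in GFP+ primary cells of mice 1, 2 and 3, against 0.826, 0.638 and 0.684 in CD45+ cells, with a log2 difference of 1.06 (SE 0.25, edgeR adjusted p = 0.029). Peritoneum cells were also high there, at 1.34, 1.52 and 1.32. The following bins were chosen after their values were seen. The bin chr15:101603687-102062941 had the smallest p in GFP+EpCAM+ cells, at 2.14, 2.15 and 2.99 against 0.931, 0.968 and 0.775 in CD45+ cells (log2 difference 1.44, edgeR adjusted p = 0.00106). It was at 1.201, 1.85 and 1.69 in EpCAM+ cells and at 1.07, 1.30 and 1.40 in GFP+ primary cells. The bin chr16:36586708-37055005 was called lower in 4 groups, with log2 differences of -0.87 to -1.39, but its CD45+ values were 1.08, 2.95 and 1.55, so the high values lay in CD45+ cells of mice 2 and 3. Peritoneum cells had 1.02, 0.788 and 0.8005 in that bin and spleen cells 0.739 and 0.676.

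GFP+ cells of the metastatic sites were compared with GFP+ primary cells to ask whether the chromosomes differ between sites. No chromosome passed: 0 of 24 tests of the 4 chromosomes in the 4 sites and the 2 EpCAM sorts had a limma adjusted p under 0.05 (2 at an unadjusted p under 0.05), and 0% of all autosomes were called in each of these comparisons. On chromosome 15 the log2 ratio was below GFP+ primary cells of the same mouse in 3 of 3 mice in peritoneum, 2 of 2 in kidney, 2 of 2 in liver and 2 of 2 in spleen cells, with differences of -0.08, -0.17, -0.12 and -0.08. On the median bin ratio spleen cells were below in 1 of 2 mice. The largest log2 differences were -0.31 on chromosome 19 in liver cells (SE 0.136, limma adjusted p = 0.362) and -0.24 on chromosome 15 in EpCAM+ cells (SE 0.0752, adjusted p = 0.0621). With the mouse as a block, EpCAM+ cells passed on chromosome 15 (log2 difference -0.24, limma adjusted p = 0.0196). On chromosome 16 the differences ran from -0.13 in spleen to 0.14 in GFP+EpCAM+ cells (lowest adjusted p = 0.718), and on chromosome 17 from -0.09 in liver to 0.08 in spleen cells (lowest adjusted p = 0.686). No bin was called by edgeR either (0% of all bins). Between 6 bins in peritoneum and 96 in liver cells had an unadjusted p under 0.05. DESeq2 called 3 bins in liver and 3 in GFP+EpCAM+ cells. The unadjusted and DESeq2 counts have no share of all bins beside them. Kidney, liver and spleen had 2 mice each, and these comparisons share the GFP+ primary samples.

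The RNA of genes on these chromosomes was tested with edgeR over 21943 genes. Genes were called against CD45+ cells in both directions. In GFP+ primary cells 6 were higher and 6 lower on chromosome 15, 4 and 8 on chromosome 16, 6 and 20 on chromosome 17 and 4 and 14 on chromosome 19, where 0.579% of all genes were called higher and 1.3% lower. In GFP+EpCAM+ cells 9 were higher and 26 lower on chromosome 15, 15 and 10 on chromosome 16, 14 and 29 on chromosome 17 and 11 and 20 on chromosome 19 (all genes 1.42% and 2.47%). Chromosome 16 was the only one of the 4 with more genes higher than lower in these cells, a difference between chromosomes that was not tested. In kidney and liver cells no gene was called by edgeR, with 2899 and 3416 of all genes at an unadjusted p under 0.05.

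A list of 42 genes on the 4 chromosomes was tested, and calls were few: Cd274 lower in 3 groups and Krt8 and Krt18 higher in GFP+EpCAM+ cells. In EpCAM+ cells 0.36% of all genes were called higher and 1.35% lower, and in peritoneum cells 0.109% and 0.447%. On chromosome 15, Krt18, a keratin of simple epithelia, was at 10421, 8827 and 6846 CPM in GFP+EpCAM+ cells of mice 1, 2 and 3, against 67.9, 675 and 41.1 CPM in CD45+ cells (log2 difference 5.02, edgeR adjusted p = 0.0286). Krt8, its partner in the filament, was at 2128, 2942 and 1771 CPM, against 13.2, 238 and 10.4 CPM (log2 difference 4.62, adjusted p = 0.0492). Both are epithelial markers in cells sorted by EpCAM, and no value of theirs overlapped with CD45+ cells. The bin of distal chromosome 15 described above was also high in the DNA of these cells. Whether RNA reads of these keratins enter that bin was not tested. The growth factor gene Pdgfb had the largest log2 difference on that chromosome, 7.47 in GFP+EpCAM+ cells, and did not pass.

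On chromosome 19, Cd274, which encodes the checkpoint ligand PD-L1, was at 2.70, 1.11 and 0.448 CPM in GFP+EpCAM+ cells, against 1618, 405 and 168 CPM in CD45+ cells (log2 difference -8.05, edgeR adjusted p = 0.0147). It was also lower in peritoneum cells, at 4.86, 1.96 and 3.32 CPM (log2 difference -8.03, adjusted p = 0.0351), and in EpCAM+ cells, at 5.97, 7.76 and 4.91 CPM (-6.58, adjusted p = 0.0377). In peritoneum cells of mouse 2 chromosome 19 DNA was at 1.44, the highest value of all. Fth1, the ferritin heavy chain, was lower by 2.45 on the log2 scale in GFP+ primary cells and did not pass (edgeR adjusted p = 0.0921). On chromosome 17 the inhibitor Cdkn1a had a log2 difference of -5.71 in GFP+ primary cells (adjusted p = 0.0776) and the class I antigen genes H2-K1 and H2-D1 had -3.16 and -3.34, none of which passed. On chromosome 16, Socs1, an inhibitor of cytokine signalling, had 5.76 in GFP+ primary cells (edgeR adjusted p = 0.137) and Runx1 0.69 (adjusted p = 0.821). The spread between mice was large (biological coefficient of variation 1.14 for RNA, 0.207 for bins), which limits these tests.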

How the data were processed

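Single-cell DNA and RNA of 3 mice were read from 2 tables of the whole series. DNA values are counts of reads in 5000 genomic bins, deposited by the authors. RNA values are expected counts per gene, deposited by the authors and rounded here after summing. Per the submitters' processing notes, exonic reads were taken as RNA and nonexonic reads as DNA, which removes exonic DNA from the bins. The notes name STAR, kallisto, Bowtie 1.0 and mm9 without a role, and the aligner settings are not given in the sources used here. A chromosome was matched to 24294 of 24426 genes by a RefSeq gene table, and 92 spike-in rows (0.000361% of counts) were left out.

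Among 2946 pairs of libraries of the same group and mouse, peritoneum cells 37 and 46 and cells 38 and 47 of mouse 1 differed by less than sampling noise in DNA (chi-square per degree of freedom 0.738 and 0.853, next 1.63). Each pair was counted as 1 cell in DNA and RNA. Their RNA differed above sampling noise (chi-square per degree of freedom 19.1 and 3.94 over genes with 10 or more counts, log-scale correlation 0.933 and 0.954), so it is not certain that each pair is the same cell. RNA was used from 368 cells with 10000 or more counts and 500 or more detected genes, which held 10805 to 17849063 counts.

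Bin counts of cells with at least 50000 reads were summed per mouse and group, scaled by their total over chromosomes 1 to 19 and tested with edgeR 4.0.16 (quasi-likelihood, R 4.3.3). RNA was tested likewise after edgeR's default filter and TMM scaling. Log2 chromosome ratios were averaged over the cells of a mouse and tested with limma 3.58.1, and permutation tests over mice used SciPy 1.17.1. All 8 groups entered each fit without a block for the mouse, and Benjamini-Hochberg adjustment was made within each comparison, with a threshold of 0.05. The mouse number in the labels marks the same animal and so pairs samples: deviations from group means correlated over bins with a median of 0.190 within a mouse and -0.0955 between mice. Alternatives for bins were DESeq2 1.42.0, TMM, equal weight of cells and at least 200000 reads. The median over bins, the mouse as a block and leaving out a mouse were further alternatives. Cells with few very high bins, and combinations with the median over bins, were added after seeing the data. The scripts were tested on simulated data.

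Of called bins, those with the largest and smallest log2 difference in GFP+ primary cells were named, and 42 genes were listed from general knowledge. The chromosomes, windows and lists were chosen with earlier results of these data known. An item withheld for evaluations is not reported here.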

Additional observations from a re-analysis of the deposited data

Results flagged for a closer look

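On chromosome 16 the groups lay on opposite sides of CD45+ cells of the same mouse. GFP+EpCAM+ primary cells were above them in all 3 mice, by 0.168 in median bin ratio on average. Kidney cells were below in both mice, at -0.0381, and spleen cells were below in both, at -0.125. The difference between these groups was not tested.

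The bulk libraries entered no comparison. A bulk library of mouse 1 that its title calls GFP+ primary and its marker label EpCam had median bin ratios of 1.11 on chromosome 15, 1.13 on chromosome 16, 1.13 on chromosome 17 and 1.10 on chromosome 19. Bulk GFP+ peritoneum cells of mouse 1 had 1.10, 1.17, 1.11 and 1.09 on the same chromosomes. Bulk GFP+ primary cells of mouse 2 had 1.03 on chromosome 15, 0.936 on chromosome 16, 1.07 on chromosome 17 and 1.36 on chromosome 19. Except on chromosome 16 of mouse 2, these values lay above those of the bulk CD45+ library of mouse 1, which had 1.02, 0.974, 1.01 and 1.00 on chromosomes 15, 16, 17 and 19. Bulk GFP- peritoneum of mouse 1 had 0.940, 0.958, 0.963 and 1.10 on the 4 chromosomes, and bulk GFP- primary tumour of mouse 1, with 19523 reads, had 1.12, 1.22, 1.04 and 0.980. Chromosome 19 of mouse 2 was high in bulk and in single GFP+ primary cells (1.40). Each bulk value is 1 library.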

How the results depend on the processing

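Calls depended on the tool, on single mice and on the cells used, and the causes were not tested. Shares of all bins are not set beside the alternative bin counts below. Those counts therefore show how calls moved with the setting, not whether the 692 bins exceeded the background. Of 692 bins against CD45+ cells, DESeq2 called 30 in GFP+ primary, 15 in EpCAM+, 94 in GFP+EpCAM+, 21 in peritoneum, 2 in kidney, 82 in spleen and 26 in liver cells, where edgeR called 1, 3, 38, 1, 0, 6 and 0, and against GFP+ primary cells DESeq2 called 3 in liver and 3 in GFP+EpCAM+ cells. TMM scaling gave 0 in GFP+ primary, 1 in EpCAM+, 0 in peritoneum and 25 in spleen cells. Cells weighted alike gave 3, 13, 3 and 11 in GFP+ primary, GFP+EpCAM+, peritoneum and spleen cells, and at least 200000 reads gave 1 in EpCAM+ and 0 in peritoneum cells. With few very high bins the counts were 0 in GFP+ primary, EpCAM+, GFP+EpCAM+ and peritoneum cells and 112 in spleen cells. The replicate block gave 4, 2 and 5 in GFP+ primary, peritoneum and liver cells. Leaving out 1 mouse gave 0 to 5 in GFP+ primary, 0 to 9 in EpCAM+, 0 to 28 in GFP+EpCAM+, 0 to 3 in peritoneum, 0 to 1 in kidney, 0 to 67 in spleen (67 without mouse 3) and 0 to 5 in liver cells, and 0 to 1 in liver against GFP+ primary cells.

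Of the 28 chromosome tests against CD45+ cells 6 passed. The median over bins gave 10, the replicate block 10, both together 12, few very high bins 0 and these with the median 4. Leaving out 1 mouse gave 1 to 5 (1 without mouse 1), and 5 to 9 with the median. Against GFP+ primary cells 0 passed, and 1 with the replicate block. The log2 difference of chromosome 19 in liver cells, -0.05, was 0.027 with the median, 0.10 with few very high bins, 0.0037 with the median and the replicate block and 0.16 with the median and few very high bins. Without 1 mouse it was -0.11 to 0.058, and 0.025 to 0.12 with the median. In kidney cells it was -0.0095 with the median without mouse 2. The Myc RNA difference was -0.69 in peritoneum and -0.43 in liver cells with the replicate block, and -1.29 to 1.45 and -3.23 to 3.14 without 1 mouse. Of 256 shares of cells under alternatives 16 moved by more than their interval. Few liver cells (10) and 2 mice at 3 sites limit what could be detected.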
